A study of Mus musculus with 12 samples.

Results

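The genes described here make, use and carry ketone bodies: Acat1, Bdh1, Bdh2, Oxct1, Slc16a1 and Slc16a7. They were chosen by symbol, with earlier results of these data known. Each of the 6 was held by 1 transcript cluster of its own, the set of short probes that an Affymetrix MoGene 2.0 ST array summarises for a transcript, and 0 of these clusters were shared with another gene. The 6 stand among 22180 named genes tested. RNA came from whole livers of 12 adult female mice of 12 to 14 weeks on the C57Bl/6 background, 6 wild-type (WT) and 6 with a knockout of Ppara (Ppara KO), each on 1 array. Both genotypes share strain, sex and age range, and the sources used here name no treatment for either. They also do not give the allele, whether the mice were littermates, the time of day, or whether they had been fasted.

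Ketone bodies are small acids that the liver makes from fatty acids and sends to other organs as fuel. In liver mitochondria the thiolase ACAT1 joins acetyl-CoA units, later steps give acetoacetate, and BDH1 reduces part of it to 3-hydroxybutyrate. The carriers of the SLC16 family take both acids across membranes. Tissues that burn ketone bodies return acetoacetate to its CoA ester with OXCT1, an enzyme that hepatocytes largely lack. PPARα, the product of Ppara, is a nuclear receptor for fatty acids and is known to drive ketone body formation in the fasted liver.

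The promoters of the pair of members that differed between genotypes, Slc16a1 and Bdh2, are shown as the 250 bases before the gene start in RefSeq (GRCm38.p6). Capitals mark a match to a searched motif.
Slc16a1 at chr3:104638414-104638663, + strand: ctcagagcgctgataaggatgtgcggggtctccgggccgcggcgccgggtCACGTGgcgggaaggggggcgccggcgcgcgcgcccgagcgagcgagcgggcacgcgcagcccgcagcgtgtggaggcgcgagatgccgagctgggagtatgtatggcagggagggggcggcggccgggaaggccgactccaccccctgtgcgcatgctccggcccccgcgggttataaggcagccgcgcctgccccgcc
Bdh2 at chr3:135280971-135281220, + strand: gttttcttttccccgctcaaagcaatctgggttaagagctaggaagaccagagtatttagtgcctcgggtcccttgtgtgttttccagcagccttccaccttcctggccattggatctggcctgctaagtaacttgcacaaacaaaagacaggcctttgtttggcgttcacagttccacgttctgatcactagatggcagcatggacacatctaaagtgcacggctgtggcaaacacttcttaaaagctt
The stretch before Slc16a1 was GC-rich, at 76.4% G and C with 37 CpG pairs, and the stretch before Bdh2 held 48% and 5. A search ran over 300-base windows, from 250 bases before to 50 after the start, on both strands. It covered CACGTG, the E-box read by the clock factors, TTATGTAA, the D-box read by DBP and its relatives, AGGTCA, the core hexamer of many nuclear receptors, and the DR1 element read by PPAR with RXR, which is AGGTCA, any base, and AGGTCA again, and so overlaps the hexamer. The window of Slc16a1 held 1 E-box, which begins at position -200 from the gene start, and an E-box was found in 7.15% of the 32851 promoter windows of the table. No other match lay in the windows of Slc16a1, Bdh2, Bdh1, which has a pair of starts, or Oxct1. The hexamer occurred in 16.3% of all windows, the D-box in 0.938% and the DR1 element in 0.0396%. A match describes letters only, and a window without one says nothing about a factor. Acat1 and Slc16a7 are named only.

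The comparison asks how liver mRNA of these genes differs when Ppara is disrupted. Called means a limma p-value under 0.05 once adjusted by the Benjamini-Hochberg method across the named genes. Bdh2 was called higher, 1.63-fold, and Slc16a1, the carrier MCT1, was called lower, 1.44-fold. The other 4, Acat1, Bdh1, Oxct1 and Slc16a7, were not called. The values of the genotypes stood apart without overlap for these same 2 genes, as for 6.51% of all genes. So 2 of 6 members passed, 1 in each direction, against a background of 10.2% of all genes tested, 4.46% higher and 5.77% lower. The median difference of the 6 was 0.038 log2 units, beside 0.0090 over all genes. With 6 members, chosen with earlier results of these data known, this share was not tested. In bulk liver, fewer cells of a type and less RNA per cell cannot be told apart.

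**Figure D1:**
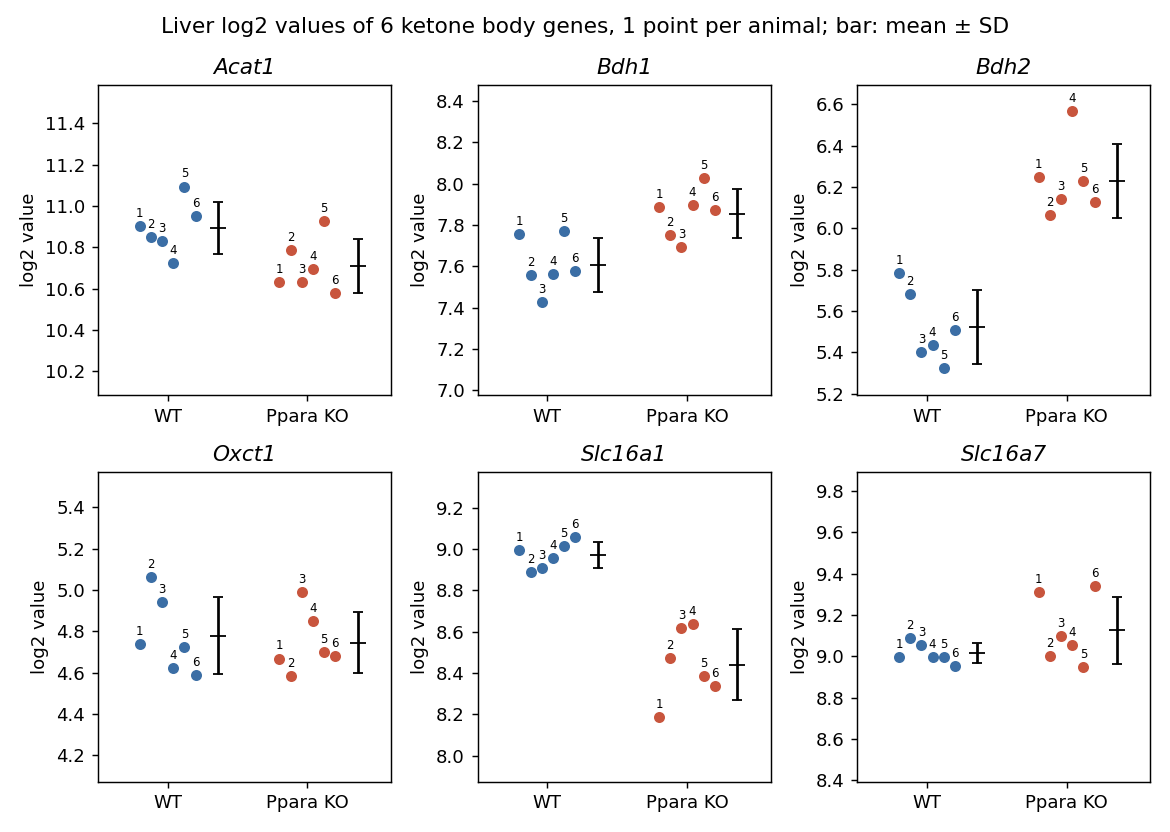
Each point is the log2 value (vertical axis, log2 units, with the same span of 1.5 units in every panel) of 1 animal, numbered within its genotype, and the black bar gives the mean ± SD of 6 animals. The WT and Ppara KO points of Bdh2 and of Slc16a1 do not overlap, while those of the other 4 genes do.

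Some values of the whole series bear on all members. Ppara itself was measured between 7.71 and 8.14 on the log2 scale in the WT livers and between 7.81 and 8.16 in the Ppara KO livers, a difference of 0.032 ± 0.085 (SE). No source used here places its probes against the deleted stretch, so this signal checks nothing about the labels. The 9 hepatocyte markers had a mean between 11.81 and 11.87 in WT livers and between 11.78 and 11.89 in Ppara KO livers, and 0 of them were called by limma, with 1 at an unadjusted p under 0.05. The mean of 8 adipocyte markers stood at 5.43, 6.14 and 6.17 in WT 1, 3 and 5, at 4.60 to 4.90 in the other 3 WT animals, and at 4.50 to 4.77 in Ppara KO. In 0 of 11 marker lists of liver cell types and neighbouring tissues did the ranges of the genotypes stand fully apart. Single markers were called: Adipoq and Lipe lower and Pparg higher among the 8 of adipocytes, Krt19 and Sox9 lower among 5 of cholangiocytes, Cd5l higher among 8 of Kupffer cells and macrophages, and Cd8a higher among 7 of lymphocytes. The mean of the Kupffer cell and macrophage list was 8.34 in Ppara KO 2 and between 7.30 and 7.82 in the other 11 livers. Without Ppara KO 2 the difference of Bdh2 was 0.74 log2 units (limma adjusted p 4.46e-04) and that of Slc16a1 -0.54 (adjusted p 0.00140). Leaving out an animal does not test a cell type. The part of the marked cell types, macrophages and adipocytes included, in the members' differences was not tested. The list means of clock genes stood fully apart between the genotypes. Of 11 genes of the E-box side all 11 were higher in Ppara KO. Their mean, less that of 5 BMAL1-side genes, ran from -2.34 to -1.91 in WT and from 0.48 to 2.06 in Ppara KO. Clock state and genotype therefore cannot be told apart in any difference given here.

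Acat1 encodes the mitochondrial thiolase of the first step, which also acts in the last step of isoleucine breakdown. Its log2 values were 10.90, 10.85, 10.83, 10.72, 11.09 and 10.95 in WT animals 1 to 6. In Ppara KO animals 1 to 6 they were 10.63, 10.79, 10.63, 10.70, 10.93 and 10.58. The Ppara KO values tended low but overlapped: 4 of 6 lay below the lowest WT value, and Ppara KO 5 lay above 4 of the WT animals. The difference was -0.18 ± 0.079 log2 units (SE; 95% interval -0.35 to -0.015; limma adjusted p 0.173; exact 2-sided permutation p 0.0346), so Acat1 was not called.

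Bdh1 encodes the mitochondrial dehydrogenase that interconverts acetoacetate and 3-hydroxybutyrate. The WT animals 1 to 6 read 7.75, 7.56, 7.43, 7.56, 7.77 and 7.58. The Ppara KO animals 1 to 6 read 7.89, 7.75, 7.69, 7.90, 8.03 and 7.87, and 4 of these 6 lay above the highest WT value. Ppara KO 2 and 3 lay within the WT range. The difference of 0.25 ± 0.078 log2 units (95% interval 0.081 to 0.41) stood just outside the threshold, with a limma adjusted p of 0.0574 and an exact 2-sided permutation p of 0.0130. It was called in 5 of 22 alternative analyses, 3 of which left out a single animal: WT 1 (adjusted p 0.0479), WT 5 (0.0411) or Ppara KO 3 (0.0445). Its size there was 0.28 each time.

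Bdh2 encodes a cytosolic dehydrogenase of the short-chain family, named for activity on hydroxybutyrate and also studied in iron handling, so its place in ketone body metabolism is less settled than that of Bdh1. WT animals 1 to 6 had 5.79, 5.68, 5.40, 5.44, 5.32 and 5.51, and Ppara KO animals 1 to 6 had 6.25, 6.07, 6.14, 6.57, 6.23 and 6.13. All 6 Ppara KO values lay above all 6 WT values, an arrangement found in that direction for 2.73% of all genes tested. Ppara KO 4 was the highest, 0.32 above the next animal. The mean rose from 5.52 ± 0.18 to 6.23 ± 0.18 (SD, n = 6 each), by 0.71 ± 0.098 log2 units (SE; 95% interval 0.50 to 0.92; limma adjusted p 2.82e-04). The exact 2-sided permutation p was 0.00216, the smallest that 6 against 6 can give. Without Ppara KO 4 the difference was 0.64 (adjusted p 4.00e-04), and with the adipocyte-marker-rich WT 1, 3 and 5 removed it was 0.69 (adjusted p 0.00554).

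Oxct1 encodes succinyl-CoA:3-oxoacid CoA-transferase, the step that lets muscle, heart and brain use acetoacetate. The values of WT animals 1 to 6 were 4.74, 5.06, 4.94, 4.62, 4.73 and 4.59. Those of Ppara KO animals 1 to 6 were 4.67, 4.58, 4.99, 4.85, 4.70 and 4.68, spread over nearly the same range. The difference was -0.034 ± 0.094 log2 units (95% interval -0.24 to 0.17; limma adjusted p 0.886; exact 2-sided permutation p 0.723), and it changed sign without WT 2, to 0.022. The interval leaves room for a change of up to 0.24 log2 units. The file gives no detection calls, so whether the Oxct1 signal lies above background is unknown.

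Slc16a1 encodes MCT1, a proton-coupled carrier of lactate, pyruvate and ketone bodies found in most tissues. WT animals 1 to 6 had 8.997, 8.89, 8.91, 8.96, 9.01 and 9.06, and Ppara KO animals 1 to 6 had 8.19, 8.48, 8.62, 8.64, 8.39 and 8.34. Every Ppara KO value lay below every WT value, which in that direction held for 3.78% of all genes tested. The mean of 8.97 ± 0.064 in WT and 8.44 ± 0.17 in Ppara KO (SD, n = 6 each) fell by 0.53 ± 0.080 log2 units (SE; 95% interval -0.70 to -0.36; limma adjusted p 5.59e-04), a change of -30.8% on the linear scale. The exact 2-sided permutation p was 0.00216. Ppara KO 1 was the lowest animal, and without it the difference was -0.48 (adjusted p 0.00114). Without WT 1, 3 and 5 it was -0.53 (adjusted p 0.0179), the same size as with them.

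Slc16a7 encodes MCT2, a related carrier with high affinity for its substrates. In WT animals 1 to 6 it stood at 8.995, 9.09, 9.05, 8.997, 8.997 and 8.96, and in Ppara KO animals 1 to 6 at 9.31, 9.0002, 9.10, 9.06, 8.95 and 9.34. Ppara KO 1 and 6 lay above all WT animals by a clear margin, and the other 4 lay in or beside the WT range. The difference of 0.11 ± 0.076 log2 units (95% interval -0.052 to 0.27; limma adjusted p 0.436; exact 2-sided permutation p 0.162) was not called.

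**Figure D2:**
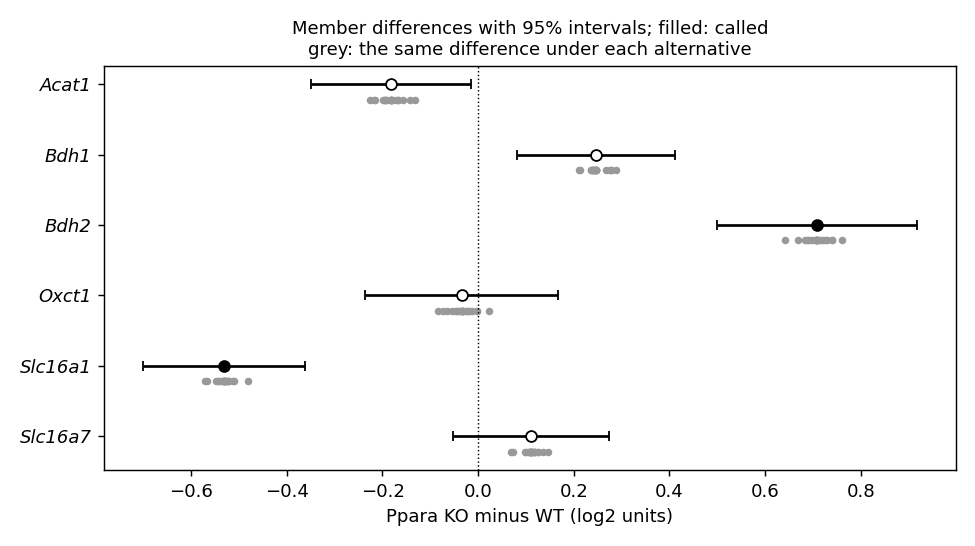
Black points give the difference Ppara KO minus WT of each gene (horizontal axis, log2 units) with its 95% interval, filled where limma called it. Grey points give the same difference under the 22 alternative analyses: those of Bdh2 stay between 0.64 and 0.76 and those of Slc16a1 between -0.57 and -0.48, while those of Oxct1 lie on both sides of 0.

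Both carriers had tight values in WT. The SD of Slc16a1 was 0.064 in WT and 0.17 in Ppara KO, and that of Slc16a7 was 0.049 and 0.16, beside a median SD within a genotype of 0.156 over all genes. The SD in Ppara KO, near that median, was thus 2.68 and 3.33 times the small SD in WT, whereas the ratios of the other 4 members lay between 0.80 and 1.03. These ratios were not tested. The 2 Ppara KO animals highest in Slc16a7, 1 and 6, were the 2 lowest in Slc16a1. Across the 6 WT arrays the values of Slc16a1 and Slc16a7 had r = -0.946, over a WT range of Slc16a7 of only 8.96 to 9.09, and across the 6 Ppara KO arrays r = -0.585. Both carriers were read from the same arrays, and the relation was noticed in these data, so it is a description. Ppara KO 1 and 6 also had the highest clock values of their genotype, 1.82 and 2.06. Ppara KO 2, with the lowest clock value of 0.48, had 8.48 for Slc16a1 and 6.07 for Bdh2. The clock values of Ppara KO 3, 4 and 5 were 1.70, 1.18 and 1.45. These animals had 8.62, 8.64 and 8.39 for Slc16a1 and 6.14, 6.57 and 6.23 for Bdh2. The part of clock state in these values was not tested.

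**Figure D3:**
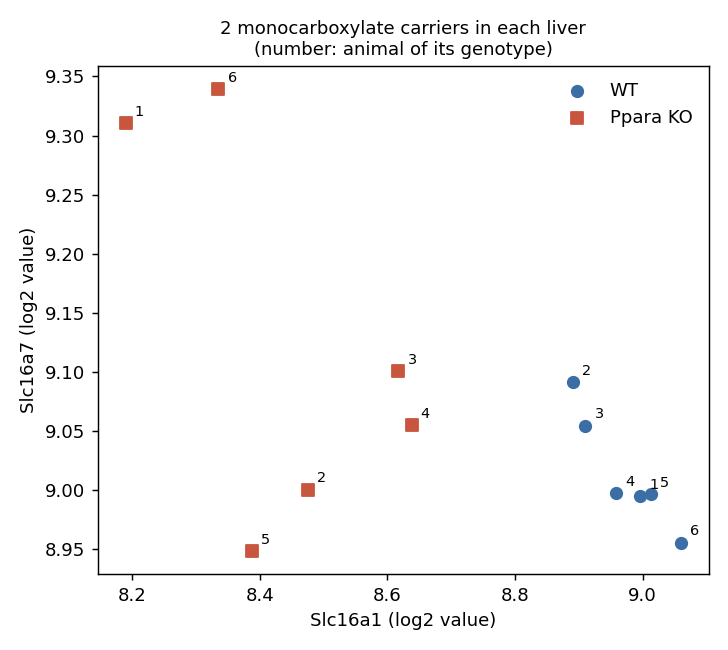
Each point is 1 liver, with its log2 value of Slc16a1 on the horizontal axis and of Slc16a7 on the vertical axis, numbered by animal within its genotype. The WT livers lie close together at 8.89 to 9.06 for Slc16a1, and Ppara KO 1 and 6 stand apart at 9.31 and 9.34 for Slc16a7.

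Among other genes of the pathway, 60 were measured, of which 6 were called higher and 7 lower. That is 21.7%, beside 10.2% of all genes tested, and the lists were drawn up with earlier results of these data known. The list of other ketone body enzymes also holds genes of beta-oxidation and of cholesterol formation, and some genes of the pathway are not reported here. It had 0 calls among 14 measured genes by limma, with 4 at an unadjusted p under 0.05, which does not describe ketone body formation as a whole. Their median difference was -0.11 log2 units, and 10 of the 14 lay below 0. Some were dim, such as Oxct2a and Hmgcll1 with WT means of 2.41 and 3.51, and may not lie above background. Hadh, a dehydrogenase of beta-oxidation, differed by -0.033 ± 0.061 log2 units, Acaa2, the mitochondrial thiolase of beta-oxidation, by -0.12 ± 0.071, and Hmgcs1, the cytosolic synthase that serves cholesterol formation, by -0.37 ± 0.14 (SE; limma adjusted p 0.119). These 3 are the uncalled genes of the highest level on that list.

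Of 16 other monocarboxylate carriers and partners 2 were called higher, 2 lower and 12 not at all, 25% beside the 10.2% of all genes. The median difference of the 16 was 0.018 log2 units. Some uncalled genes were dim, such as Slc5a12, Slc5a8 and Slc16a4, with WT means of 2.50, 2.83 and 2.98. Whether such signals lie above background is unknown. Slc16a12, a carrier of creatine, rose by 0.62 ± 0.11 log2 units, and Slc16a10, a carrier of aromatic amino acids, by 0.39 ± 0.11. Slc16a11 and Slc16a13, related members of the family, fell by 0.59 ± 0.12 and by 0.50 ± 0.075 (SE, limma adjusted p 0.00612 and 5.73e-04), each without overlap between the genotypes, as 3.78% of all genes were in that direction. Slc16a11 was dim, with means of 4.53 in WT and 3.94 in Ppara KO, and whether its signal lies above background is unknown. Without WT 1, 3 and 5 the limma adjusted p was 0.0578 for Slc16a11 and 0.0193 for Slc16a13. Bsg encodes basigin, the membrane partner that MCT1 needs to reach the cell surface, and differed by -0.15 ± 0.060 log2 units without a call (limma adjusted p 0.143). Mpc1, a subunit of the mitochondrial pyruvate carrier, differed by 0.13 ± 0.062 and Slc16a5 by -0.43 ± 0.18, and neither was called. The call of Slc16a10 ended without WT 1 or 5 or without Ppara KO 1, 3, 5 or 6, with an adjusted p of up to 0.0726, and its difference was 0.21 without WT 1, 3 and 5 together (adjusted p 0.264).

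Leucine breakdown ends in acetoacetate, and isoleucine breakdown passes through the ACAT1 step. The list of 17 genes for these routes also holds genes of valine breakdown, Acad8, Hibch and Hibadh. Of the 17, 2 were higher and 1 lower, 17.6% beside the 10.2% of all genes. Bckdk, the kinase that switches off the branched-chain ketoacid dehydrogenase, fell by 0.31 ± 0.067 log2 units (SE; limma adjusted p 0.00855). Ppm1k, the phosphatase that switches it on, rose by 0.33 ± 0.096, and Bckdhb, a subunit of that dehydrogenase, by 0.26 ± 0.069. The rise of Bckdhb lost its call without WT 5 or 6 or Ppara KO 3 or 6 (adjusted p up to 0.0640), and that of Ppm1k without WT 1, 4, 5 or 6 or Ppara KO 1, 3, 5 or 6 (up to 0.0838). Without WT 1, 3 and 5 together the adjusted p of Bckdk was 0.123. Hibadh, Dbt and Echs1, the uncalled genes of the highest level on this list, differed by 0.11 ± 0.072, -0.046 ± 0.080 and 0.018 ± 0.069 log2 units (SE).

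The list of ketone body receptors and controllers also holds carnitine acyltransferases, Cpt2 and Crot among them. It had 2 rises and 4 falls among 13 genes, 46.2% beside the 10.2% of all genes, with a median difference of -0.039 log2 units. Its ketone body receptors, Hcar2 and Ffar3, were dim, with WT means of 3.97 and 2.37, and were not called. Fgf21, a liver hormone of fasting, ran from 4.46 to 6.55 in WT and from 3.70 to 4.46 in Ppara KO and fell by 1.37 ± 0.31 log2 units, or by 0.91 without WT 1, 3 and 5. Cpt2, the inner carnitine palmitoyltransferase that brings fatty acids into mitochondria, fell by 0.90 ± 0.074, and Crot, its peroxisomal relative for medium chains, by 0.61 ± 0.11. Foxa2, a liver transcription factor of the fasted state, fell by 0.48 ± 0.11 log2 units (adjusted p 0.0512 without WT 1, 3 and 5). Lpin1, a phosphatidate phosphatase and coregulator, rose by 1.06 ± 0.21 and Ppargc1b, a coactivator of nuclear receptors, by 0.39 ± 0.096. Cpt1a (0.23 ± 0.086), Creb3l3 (-0.29 ± 0.089) and Insr (0.051 ± 0.068) were not called, Creb3l3 with a limma adjusted p of 0.0535.

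**Figure D4:**
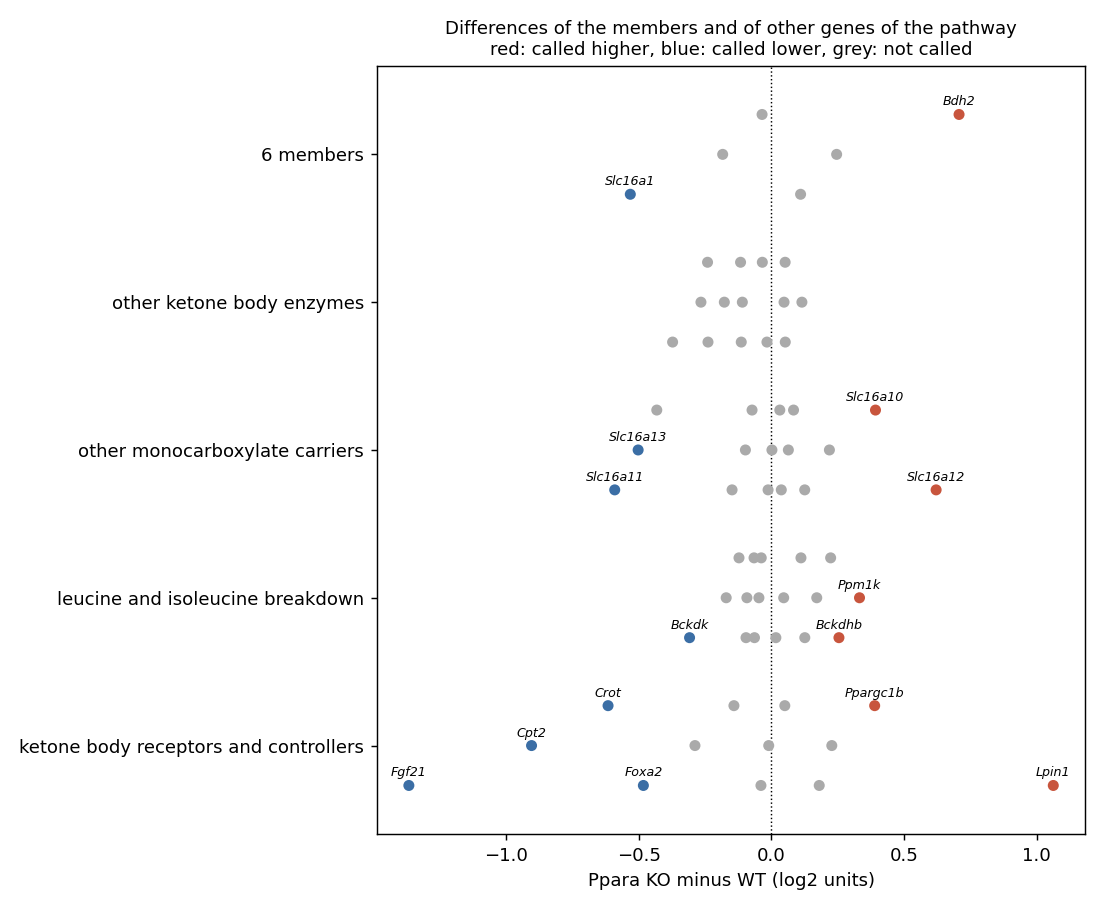
Each point is the difference Ppara KO minus WT of 1 gene (horizontal axis, log2 units), in rows for the 6 members and for the 4 lists of other pathway genes. The heights within a row only separate the points. Called genes are coloured and named. The row of other ketone body enzymes, which also includes genes of beta-oxidation, holds 0 of them.

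The genes most like each member in their variation between animals were also listed. For each member the deviations from its genotype mean over the 12 arrays were set against those of 17136 other genes with established symbols. These r values are the highest of a large search over 12 arrays and are given as a description. Bdh2 was most like Alppl2 (r = 0.905), Mrpl45 (0.903) and Cep72 (0.901), and Slc16a1 most like Mier2 (0.946), Mc4r (0.920) and Ccm2 (0.902). Acat1 was most like Mcpt2 (0.952), Pfkp (0.869) and Pfn1 (0.865), and Bdh1 most like Crnde (0.941), Pate9 (0.898) and Defb1 (0.897). For Oxct1 the list was Washc5 (0.925), Cep55 (0.919) and Stac3 (0.911), and for Slc16a7 it was Iftap (0.957), Sepsecs (0.944) and Rwdd2a (0.943). None of the 6 members appeared on the list of another, and among the 15 pairs of members r ran from -0.644, for Acat1 and Slc16a7, and -0.620, for Slc16a1 and Slc16a7, to 0.563, for Acat1 and Bdh1. Of these 18 genes limma called only Cep55, which fell by 0.43 log2 units (adjusted p 0.0485).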

How the data were processed

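RNA of 12 livers was measured on 1 array each. The authors deposited log2 values made with RMA (background correction, normalization across arrays, probe summary) and Partek, per the submitters' processing notes, without versions. RMA hides a change that most genes share and compresses changes of dim genes. Array medians lay between 4.13 and 4.17. The sources used here give no genome build for the array annotation.

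Of 41345 transcript clusters, 23521 had 1 gene symbol in the platform annotation, 1814 several, and the rest were unnamed here. The cluster with the highest mean stood for a gene, which gave 22180 genes. All were fitted with limma 3.58.1 in R 4.3.3 (lmFit, eBayes, 2-sided, no covariate, all 12 arrays), with Benjamini-Hochberg adjustment over them. Members were also compared by an exact permutation test over 924 assignments. Precision is limited by the number of arrays, with a median SE of 0.093 for a difference. On simulated data the fit recovered 9 of 50 changes of 1.25-fold, 44 of 50 of 1.5-fold and 50 of 50 of 2-fold. Of its 165 calls there, 12 were false. The real data gave 2268 calls, so these shares need not hold for them.

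The members and the gene lists were chosen with earlier results of these data known. Named were all members and, of each pathway list, called genes (up to 8) and the 3 uncalled genes of the highest level. Some dim uncalled genes and genes that show what a list holds were also named. For each member, the 3 genes closest in their deviations from the genotype means were named too. Some genes of the pathway are not reported here. Promoter sequences came from RefSeq tables of GRCm38.p6, which held 4 of the 6 members. The numbers that WT and Ppara KO animals share were not treated as pairs. The deviations of same-numbered animals had correlations between -0.047 and 0.043, which cannot exclude that such animals were littermates. Alternatives were other variance priors, array weights, scalings, a filter on dim genes, other clusters, a stricter threshold, the animal number as a block, and animals left out.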

Additional observations from a re-analysis of the deposited data

Results flagged for a closer look

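Of 12 sets of 6 values, 1 set for each member and genotype, 1 held an animal far from the others. Bdh2 in Ppara KO 4 stood at 6.57, with the next animal at 6.25, and the gap made up 0.632 of the range of the 6 animals, just above Dixon's 95% critical value for 6 animals. Chance gives such a gap in about 1 of 20 groups. The difference of Bdh2 without this animal, 0.64 log2 units, remained called.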

How the results depend on the processing

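Bdh2 and Slc16a1 were called with the same sign in each of the 22 alternatives, with differences of 0.64 to 0.76 and of -0.57 to -0.48 log2 units. Acat1 and Slc16a7 were called in none of them. Bdh1 was called with a variance prior fitted to the level (0.25, adjusted p 0.0243) and among genes at or above the median level (0.25, adjusted p 0.0223). With single animals left out it ran from 0.21 to 0.28, with adjusted p from 0.0411 to 0.128. Oxct1 ran from -0.084 to 0.022 with single animals left out. An adjusted p under 0.01 gave 1070 genes and 7 of the other pathway genes, and leaving out WT 1, 3 and 5 gave 1008 and 7, against 2268 and 13. The first loss comes from the threshold. The second fits had fewer animals and also lacked the adipocyte-marker-rich WT livers, and the part of each in the loss was not tested. With the animal number as a block, 1672 genes and 10 other pathway genes were called, and among the members Bdh2 and Slc16a1 again. Of the other pathway genes, Bckdhb, Slc16a10 and Ppm1k lost their calls with this block. Of the 6 WT animals 1 correlated best with the Ppara KO animal of its number, and 0 of the 6 Ppara KO animals with the WT animal of theirs. The intervals of the 4 uncalled members reach 0.24 to 0.41 log2 units from 0 on their wider side.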
